A study of Mus musculus and Rattus norvegicus with 26 samples.

Results

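Intronic sequence of the vesicle trafficking genes was examined in RNA from dendrites and somas of hippocampal neurons, from single brown adipose tissue (BAT) cells and from single cardiomyocytes. A gene was counted here when its symbol began with Rab and a digit, or with Tbc1d, Vps, Snx, Stx, Syt or Exoc. Of the 13695 gene symbols with an intronic contig in any of the 6 lists, 182 were members by this rule, with 1453 of the 85860 listed introns and 1938 of the 112345 contigs. The rule reads names alone and used no measured value. It takes in a few proteins that act elsewhere, such as Vps72, a chromatin protein, and it leaves out trafficking genes with other names.

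Each list holds stretches of intron sequence (contigs) that were covered by reads in RNA of 1 kind of sample, with the libraries of that kind pooled by the authors. The labels name 3 dendrite and 3 soma libraries of mouse neurons from C57BL/6 hippocampus at embryonic day 18, and 2 dendrite and 3 soma libraries of rat neurons from Sprague-Dawley hippocampus at embryonic day 18. For BAT they name 6 libraries of interscapular cells from CD-1 mice at embryonic day 17.5, and for cardiomyocytes 9 libraries from transgenic C57BL/6 mice at embryonic day 14.5, which were hemizygous for the Fucci reporter mAG-hGem driven by the CMV promoter. Every library is assigned by its own description to the list of its group. The study's text, however, reports fewer single cells than libraries for BAT and for cardiomyocytes. Whether all libraries of these 2 groups were pooled is not stated in the sources used here. The neurons were in primary culture, dendrites were severed by hand and collected in batches, BAT cells were picked by their morphology, and cardiomyocytes were sorted from ventricles. Each soma library came from a single cell, while each dendrite library came from a batch of many dendrites. Somas, BAT cells and cardiomyocytes hold a nucleus, and the authors could not fully exclude nuclear RNA in somas. The part of nuclear RNA in the values below was not tested. RNA of all groups was amplified by 3 rounds of the aRNA procedure, in which a poly(T) primer with a T7 promoter starts a linear transcription. The strand of a read is not kept, so reads of a gene and of an overlapping antisense partner cannot be told apart.

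The count is the number of reads in an intron, without normalization, and was taken once per transcript and intron. The listed reads total 3086576 in mouse dendrites, 1855447 in mouse somas, 1007530 in rat dendrites, 2094541 in rat somas, 17858440 in BAT cells and 12201042 in cardiomyocytes. Since no value per library is given, nothing below has an error between libraries, no test was run, and lists are compared by description. All intervals cover counting error only, since amplified reads are not independent molecules. Fewer cells with an intron and fewer copies per cell cannot be told apart in pooled lists.

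Membrane vesicles move cargo between the organelles of a cell and the plasma membrane. Rab GTPases mark the membranes and recruit motors and tethers in their GTP-bound form, and Tbc1d proteins carry the TBC domain that switches Rab proteins off. The exocyst, built from Exoc subunits, and several Vps complexes tether vesicles to their target. Syntaxins (Stx) are SNARE proteins that drive fusion, syntaxin-binding proteins (Stxbp) control them, and synaptotagmins (Syt) couple fusion to calcium. Sorting nexins (Snx) and the retromer (Vps26, Vps29 and Vps35) return receptors from endosomes. In neurons the same machinery releases transmitter and carries receptors into dendrites, and in fat and muscle cells it brings the glucose transporter Glut4 to the surface.

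Some contigs filled an intron from the donor to the acceptor site. The 3 shown had the most reads among member introns of at most 300 nt that a contig covered from end to end without touching an annotated exon. They show the sequence that the contig covered. Capitals mark the GT and AG at the ends, and all sequences are of mm9 (NCBIM37), read 5′ to 3′ on the strand of the gene.
Tbc1d23 intron 6, chr16:57198884-57198971, minus strand: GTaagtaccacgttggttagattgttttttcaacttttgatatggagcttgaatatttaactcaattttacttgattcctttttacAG
Vps37a intron 7, chr8:41626161-41626242, plus strand: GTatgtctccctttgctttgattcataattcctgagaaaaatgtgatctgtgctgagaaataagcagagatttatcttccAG
Vps36 intron 13, chr8:23328761-23328870, plus strand: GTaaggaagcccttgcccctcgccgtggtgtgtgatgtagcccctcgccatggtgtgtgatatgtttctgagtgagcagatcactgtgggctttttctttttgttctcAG

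Intron 6 of Tbc1d23, which encodes a protein of the trans-Golgi, is 88 nt long with 29.55% G and C and had 1981 reads in the BAT list. Intron 7 of Vps37a, a subunit of the ESCRT-I sorting complex, is 82 nt long and had 930 reads in the BAT list. Intron 13 of Vps36, an ESCRT-II subunit, is 110 nt long and had 352 reads in the cardiomyocyte list. Their sequences begin with GT and end with AG, as introns removed by the major spliceosome do.

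Since amplification begins at a poly(T) primer, the bases after a contig are also shown. For each mouse list this is the member intron with the most reads among those with a single contig, no exon contact and a genomic run of at least 10 adenines beginning at most 100 nt downstream. Each line gives the last 60 bases of the contig, then any gap, then the adenines beyond the contig in capitals.
Stxbp4 intron 17, chr11:90344031-90344103, minus strand: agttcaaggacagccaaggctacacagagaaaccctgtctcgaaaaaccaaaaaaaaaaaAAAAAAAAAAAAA
Vps37d intron 2, chr5:135551137-135551219, minus strand: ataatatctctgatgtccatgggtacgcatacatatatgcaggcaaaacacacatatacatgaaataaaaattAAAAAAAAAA
Snx6 intron 6, chr12:55867624-55867707, minus strand: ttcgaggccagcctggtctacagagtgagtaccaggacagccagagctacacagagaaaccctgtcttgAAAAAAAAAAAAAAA
Tbc1d23 intron 12, chr16:57184859-57184940, minus strand: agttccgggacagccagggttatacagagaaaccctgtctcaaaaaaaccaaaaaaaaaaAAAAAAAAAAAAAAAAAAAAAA

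The contig in intron 17 of Stxbp4, which encodes a protein that binds syntaxin 4, had 1142 reads in mouse dendrites and ended within a run of 24 adenines, of which 13 lie beyond the contig and are in capitals. The contig in intron 2 of Vps37d had 382 reads in mouse somas and ended 13 nt before 10 adenines. In intron 6 of Snx6, a partner of the retromer, the contig had 10307 reads in the BAT list and ended 9 nt before 15 adenines. The contig in intron 12 of Tbc1d23 had 267 reads in cardiomyocytes and ended within a run of 32 adenines, of which 22 lie beyond it. The 20 bases before the run and any adenines joined to it occur 13541 times in the mouse genome for Stxbp4, 9589 times for Snx6 and 1211 times for Tbc1d23, so these ends lie in repeated sequence, while those of Vps37d occur 4 times.

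A stretch covered in all 4 mouse lists was found in 8 of the 35 member introns that the 4 lists share (22.86%, interval 12.07 to 39.02), against 27.57% of all introns in the 4 lists. The 3 stretches of 100 to 300 nt with no annotated exon beneath are shown, and that of Rab44, which lies over an annotated pseudogene of Rpl35a whose 169 bases are in capitals.
Rab44 intron 1, chr17:29273871-29274085, plus strand: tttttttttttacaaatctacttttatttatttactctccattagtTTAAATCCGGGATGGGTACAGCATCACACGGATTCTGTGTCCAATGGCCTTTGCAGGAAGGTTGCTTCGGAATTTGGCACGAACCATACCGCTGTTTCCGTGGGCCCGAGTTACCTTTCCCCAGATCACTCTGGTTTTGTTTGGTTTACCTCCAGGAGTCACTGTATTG
Rab12 intron 1, chr17:66863655-66863859, minus strand: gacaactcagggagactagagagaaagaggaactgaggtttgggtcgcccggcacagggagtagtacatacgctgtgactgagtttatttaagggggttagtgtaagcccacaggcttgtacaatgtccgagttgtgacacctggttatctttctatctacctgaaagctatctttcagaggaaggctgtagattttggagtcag
Rab12 intron 2, chr17:66852027-66852155, minus strand: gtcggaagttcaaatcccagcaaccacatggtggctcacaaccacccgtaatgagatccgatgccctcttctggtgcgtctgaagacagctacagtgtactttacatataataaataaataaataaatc
Exoc6b intron 18, chr6:84763168-84763437, minus strand: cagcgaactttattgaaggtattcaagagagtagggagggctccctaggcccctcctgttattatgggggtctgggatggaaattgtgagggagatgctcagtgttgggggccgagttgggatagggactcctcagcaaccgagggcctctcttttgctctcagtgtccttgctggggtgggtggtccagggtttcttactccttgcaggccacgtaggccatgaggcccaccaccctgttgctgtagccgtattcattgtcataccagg

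In intron 1 of Rab44 the reads were 12 in mouse dendrites, 12 in mouse somas, 698 in BAT cells and 1843 in cardiomyocytes. Intron 1 of Rab12, a GTPase of recycling and degradation routes, had 2, 69, 48 and 1267 reads in the same order, and its intron 2 had 403, 98, 3 and 463. Intron 18 of Exoc6b, an exocyst subunit, had 318, 31, 513 and 406 reads, and 1 of its dendrite contigs, of 852 nt, touches an exon of the same gene. Its shared stretch holds sequence of Gapdh: 199 bases of the 270 nt contig in dendrites were covered by exact words of 31 bases from the Gapdh transcript, on the opposite strand. At Rab44, 204 of the 215 nt of the soma contig (94.88%) matched Rpl35a on the opposite strand.

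Stretches shared with another transcript were counted for all mouse members. At least 100 bases of a coding transcript of another gene were found in 43 of 436 member contigs in dendrites (9.862%), 25 of 251 in somas (9.96%), 76 of 704 in BAT cells (10.8%) and 31 of 254 in cardiomyocytes (12.2%). Of these 175 matches, 149 covered under 200 bases, with a median of 122, so most were shorter than the matches to Gapdh and Rpl35a in the BAT list. The stretch of Rab12 intron 2 shown above shared 53 of its 129 bases with the Dnajb14 transcript, and that of intron 1 shared no word of 31 bases with one. Among all contigs the shares were 8.836%, 8.071%, 10.38% and 10.96%, each inside the Wilson interval of the member share. Intron 8 of Tbc1d2b held a copy of Rpl35a on the same strand (352 bases in the BAT list), and intron 23 of Vps13a held one of Rps27a on the opposite strand (352 bases in the BAT and cardiomyocyte lists). Only uniquely mapped reads were kept by the authors. The gene named for a match is the first whose words covered the most bases, and not every gene that holds a much repeated word was compared. The name can thus be that of any of several transcripts that share the stretch. Dnajb14, for example, was named at Rab5a, Vps54 and Vps11 in the BAT list. Whether reads of a matching transcript enter these introns was not tested.

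Contigs that touch an annotated exon were counted as well. There were 101 such member contigs in 98 mouse introns, of which 84 touched an exon of their own gene, 17 touched an exon of another gene only and 13 touched a pseudogene. They were 4.358% of member contigs in mouse dendrites, 7.968% in mouse somas, 5.824% in BAT cells and 8.268% in cardiomyocytes, against 5.037%, 9.613%, 7.537% and 11.41% of all contigs. Their introns held 7.954% of the member reads in mouse dendrites, 10.96% in mouse somas, 15.45% in BAT cells and 5.576% in cardiomyocytes.

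Members made up a similar small part of each list. They were 125 of 8607 genes in mouse dendrites (1.452%, 95% Wilson interval 1.22 to 1.728), 97 of 5895 in mouse somas (1.645%) and 77 of 4485 in rat dendrites (1.717%). In rat somas they were 64 of 3393 (1.886%, interval 1.48 to 2.401), in BAT cells 148 of 10220 (1.448%) and in cardiomyocytes 96 of 6205 (1.547%). The intervals of the lowest and the highest share overlap.

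The median member intron had 23 reads in mouse dendrites, 18 in mouse somas, 17 in rat dendrites and 22 in rat somas, beside 24, 22, 14 and 24 for all listed introns. It had 28.5 reads in BAT cells and 65 in cardiomyocytes, beside 29 and 53. Most introns thus had few reads and a few had very many. Read counts are not corrected for length here. The 3 introns with the most reads held 22.1% of the member reads in mouse dendrites, 32.77% in mouse somas, 33.22% in rat dendrites, 24.06% in rat somas, 28.8% in BAT cells and 30.9% in cardiomyocytes.

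**Figure D1:**
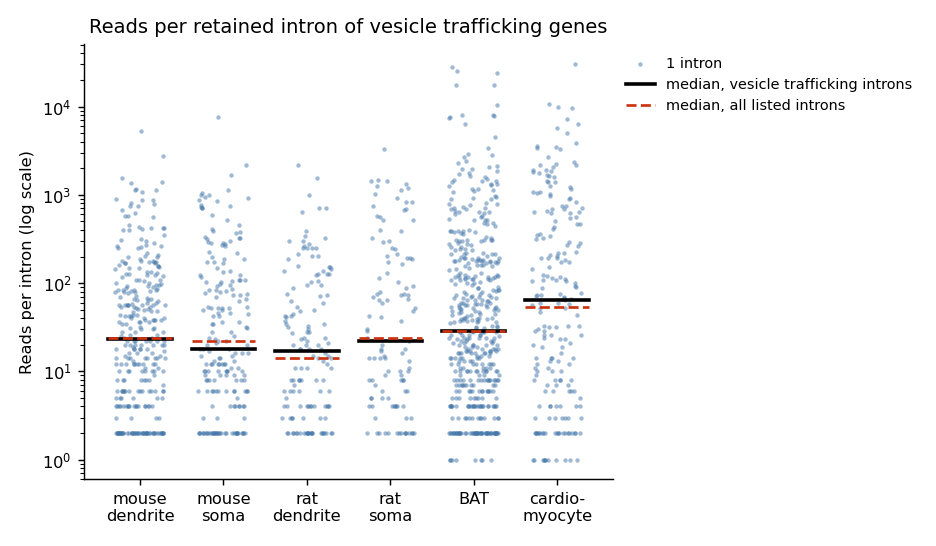
Reads per intron (log scale) of each vesicle trafficking intron in the 6 lists, 1 point per intron, with the median of these introns (black) and of all listed introns (red, dashed). Member medians sit between 17 and 65 reads, close to those of all introns, and single introns reach 30517 reads.

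An intron with at least 100 reads was found in 55 of 125 member genes in mouse dendrites (44%, against 41.9% of all genes in that list), 41 of 97 in mouse somas (42.27%, against 34.3%) and 28 of 77 in rat dendrites (36.36%, against 29.9%). In rat somas it was 26 of 64 (40.62%, against 42.7%), in BAT cells 84 of 148 (56.76%, against 53.5%) and in cardiomyocytes 53 of 96 (55.21%, against 53.7%). The Wilson interval of the member share held the background share in each of the 6 lists, so the members stood near the background.

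The 182 genes comprised 45 Rab GTPases, 8 proteins that bind or regulate Rab proteins and carry their name (Rab11fip, Rab3gap and Rab3ip), 25 Tbc1d, 29 Vps, 25 Snx, 14 Stx, 8 Stxbp, 14 Syt, 5 synaptotagmin-like (Sytl) and 9 Exoc genes. A few genes carry different symbols in the species, so that Rab6, Stx4a, Stx5a and Stxbp3a of mouse stand beside Rab6a, Stx4, Stx5 and Stxbp3 of rat. The Sytl genes, which bind Rab27, were listed in mouse dendrites (5 genes), BAT cells (4 genes) and cardiomyocytes (1 gene) and in no other list.

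The families differed in how many genes each list held. Rab GTPases were 30 in mouse dendrites, 23 in mouse somas, 18 in rat dendrites, 13 in rat somas, 35 in BAT cells and 22 in cardiomyocytes. In the same order, the Vps genes were 22, 20, 16, 13, 27 and 19, the Snx genes 17, 11, 14, 9, 19 and 15, and the Tbc1d genes 16, 15, 5, 7, 24 and 15. The Syt genes were 9, 10, 6, 5, 9 and 3, the Stx genes 8, 3, 6, 5, 10 and 6, and the Exoc genes 8, 5, 5, 5, 7 and 5.

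**Figure D2:**
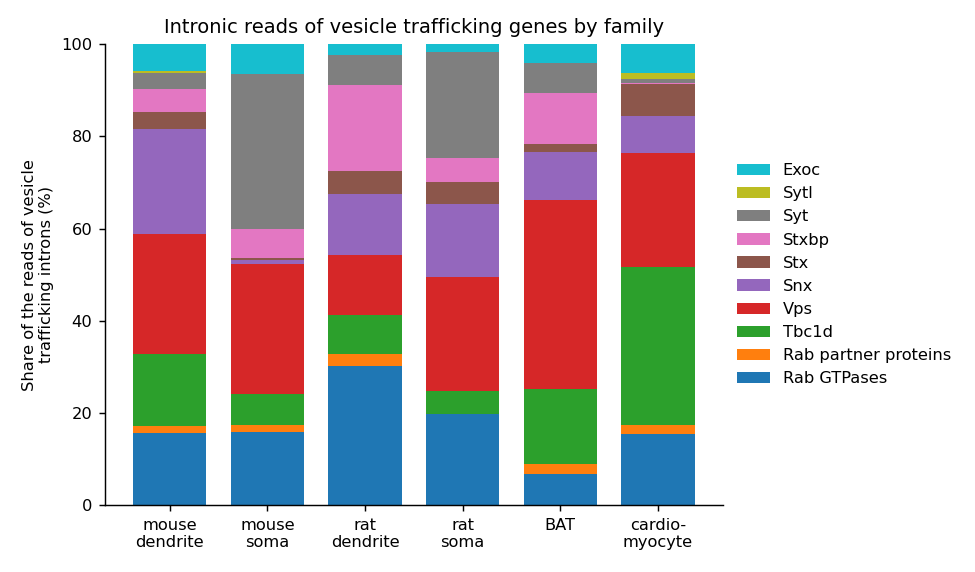
Share (%) of the reads of vesicle trafficking introns that each family of genes held, 1 stacked bar per list. Synaptotagmins hold 33.66% in mouse somas and 22.98% in rat somas but 3.325% and 6.469% in the dendrites, and Tbc1d genes hold 34.22% in cardiomyocytes.

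Among all members, Syt1 had the most reads in both soma lists. Syt1, the fast calcium sensor of transmitter release, had 72 reads in mouse dendrites, 8662 in mouse somas, 53 in rat dendrites and 4520 in rat somas. It also had 8127 reads in the BAT list and was not listed in cardiomyocytes. Both somas were thus high and both dendrites low, in either species. As RPM, that is reads scaled to the total of listed reads of each list, Syt1 had 23.33 in mouse dendrites against 4668.4 in mouse somas, a log2 ratio of -7.64 (exact counting interval -8.00 to -7.31), and 52.6 in rat dendrites against 2158.0 in rat somas, a log2 ratio of -5.36 (interval -5.78 to -4.97).

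In mouse somas most of these reads lay in intron 8 of Syt1, which had 7666 reads in 7 contigs within an intron of 43261 nt. Intron 4 held 712 reads in somas, 60 in dendrites and 7743 in BAT cells, and 1 contig there matched another transcript in somas (Mob4 over 27.05% of 451 nt) and in dendrites (Parva over 76.88% of 199 nt). In rat somas, intron 4 was the intron with the most reads of any member, with 3296 reads in 3 contigs, against 11 in rat dendrites. Introns were numbered by separate annotations in the species, so equal numbers need not mean equal introns.

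Synaptotagmins held 33.66% of member reads in mouse somas and 22.98% in rat somas, against 3.325% and 6.469% in the dendrites. Without Syt1 the shares were 12.05% and 6.698% in the somas and 3.164% and 6.118% in the dendrites, so that in rat the difference rested on Syt1. Other members differed in their list of highest reads. Syt6 had 1689 reads in mouse somas, 2 in mouse dendrites and 280 in BAT cells. Syt17 had 852 reads in mouse somas and 2 in mouse dendrites. Syt3 had 1422 reads in rat somas and 2 in rat dendrites, and was in no mouse list. Syt4, a synaptotagmin of dense core vesicles, had 708 reads in rat dendrites and 703 in BAT cells and was in no soma list. Syt9 had 765 reads in mouse dendrites, 42 in mouse somas, 14 in rat dendrites and 7670 in BAT cells. The BAT reads of Syt9 lay in 3 contigs of intron 3, of which 1 of 127 nt matched the H2-Q4 transcript over 91.34% of its length, and 576 of those in dendrites lay in the same intron, where 1 contig matched Calu over 44.92%. Syt7, a slower calcium sensor, had 30 reads in mouse dendrites, 70 in mouse somas, 2 in BAT cells and 8 in cardiomyocytes, and Syt10 had 326, 92, 313 and 4 in the same order and 4 in rat somas. Of the synaptotagmin-like genes, Sytl2 had 77 reads in mouse dendrites and 387 in BAT cells, and Sytl4 had 4 in each of these and 2176 in cardiomyocytes.

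Among the syntaxins, which lie on the target membrane, Stx1a of the presynaptic membrane had 2 reads in mouse dendrites and 1 in BAT cells and was in no other list. The endosomal Stx8 had 873 in mouse dendrites, none listed in mouse somas, 17 in rat dendrites, 18 in rat somas, 785 in BAT cells and 10650 in cardiomyocytes. Its intron 7 of 94327 nt held 10617 of these, in 7 contigs. Stx7, another endosomal syntaxin, was listed in rat dendrites alone with 20 reads. Stx4a, the syntaxin of Glut4 delivery, had 244 reads in BAT cells and 14 in cardiomyocytes, and its rat form Stx4 had 71 in dendrites and 75 in somas. Stx6 of the trans-Golgi had 2 in mouse dendrites, 2 in rat somas, 310 in BAT cells and 222 in cardiomyocytes.

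Among the syntaxin-binding proteins, Stxbp4 was higher in mouse dendrites, with 1506 reads in dendrites and 13 in somas, while in rat it had 8 and 4 reads, a log2 ratio of 2.06 with the wide interval 0.16 to 4.24. In the BAT list Stxbp4 had 28281 reads, of which 28263 lay in 1 contig of 999 nt in intron 7 (chr11:90466168-90467166, minus strand) that touches an exon of the same gene. This was the member intron with the most reads in BAT cells. Stxbp5, or tomosyn, an inhibitor of SNARE assembly, had 231 reads in mouse somas, 382 in rat dendrites, 795 in rat somas, 128 in BAT cells and 12 in cardiomyocytes. Stxbp6, or amisyn, which also binds SNARE proteins, had 2183 reads in rat dendrites and 8 in rat somas and was in no mouse list.

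The Rab GTPases were spread over more genes than any other family, and no single gene held most of their reads in any list. The highest share of a single gene was 46.58%, for Rab6a in rat somas. The exocytic Rab3 proteins of synaptic vesicles were listed unevenly. Rab3a was in no list. Rab3c had 130 reads in mouse dendrites, 1587 in mouse somas, 257 in BAT cells and 5 in cardiomyocytes, and Rab3b had 18 in mouse somas and 3 in cardiomyocytes. Rab3d, the form of secretory granules, went the other way in mouse neurons, with 304 reads in dendrites and 6 in somas, and had 2 in BAT cells. Rab3c was thus highest as RPM in mouse somas, with 855.3 against 42.12 in mouse dendrites, and was in neither rat list. Rab27b, which also acts in exocytosis, had 149 reads in mouse dendrites and 175 in cardiomyocytes, and its relative Rab27a had 1387 in mouse dendrites, 8 in rat dendrites, 10 in rat somas and 10 in BAT cells.

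Rab5a, the GTPase of early endosomes, was in all 6 lists, with 303 reads in mouse dendrites, 73 in mouse somas, 702 in rat dendrites, 6 in rat somas, 1514 in BAT cells and 205 in cardiomyocytes. It was higher in the dendrites of both species, by a log2 ratio of RPM of 1.32 in mouse (interval 0.95 to 1.71) and 7.93 in rat (interval 6.80 to 9.38). The mouse introns differed between the sides, since the dendrite list held 300 of its reads in intron 2 and the soma list held 73 in intron 5. Intron 5, which both mouse lists held, had 3 reads in dendrites, so that dendrites were lower there. Rab11a, the GTPase of recycling endosomes, was also in all lists but opposite between the species. It had 768 reads in mouse dendrites and 10 in mouse somas (log2 ratio 5.53, interval 4.64 to 6.59), and 4 in rat dendrites and 221 in rat somas (log2 ratio -4.73, interval -6.62 to -3.36). The rat reads lay in different introns, intron 4 in dendrites and introns 2 and 3 in somas. It had 301 reads in BAT cells and 844 in cardiomyocytes.

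Rab7, the late endosomal GTPase, had 8 reads in mouse dendrites, 59 in BAT cells and 1760 in cardiomyocytes. Rab10, which carries Glut4 vesicles in fat cells, had 94 reads in mouse dendrites, 1548 in rat dendrites, 1452 in rat somas and 333 in BAT cells. Intron 3 of rat Rab10 held 1534 of the dendrite reads and all 1452 of the soma reads, in contigs that overlap on chromosome 6_random of rn4. Rab14 had 2225 reads in mouse somas and 49 in mouse dendrites, and 6 and 15 in rat dendrites and somas. BAT cells had 1673 reads and cardiomyocytes 764. Of its mouse soma reads, 2196 lay in intron 4 (211.2 reads per 100 covered nt). Rab12 had 407, 167, 2 and 17 reads in mouse dendrites, mouse somas, rat dendrites and rat somas, and 883 in BAT cells and 7428 in cardiomyocytes. Rab44 and its copy of Rpl35a are described above.

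Among the partners of Rab proteins, Rab3gap1 and Rab3gap2 are the subunits of a complex that acts on Rab3 and Rab18. Rab3gap2 had 2 reads in mouse dendrites, 106 in mouse somas, 2 in rat dendrites, 2614 in BAT cells and 114 in cardiomyocytes, and Rab3gap1 had 10 in mouse dendrites, 702 in BAT cells and 1435 in cardiomyocytes. Rab11fip2, which links Rab11 to the motor myosin V, had 20 reads in mouse dendrites, 99 in BAT cells and 1015 in cardiomyocytes.

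The Tbc1d family held 34.22% of the member reads in cardiomyocytes, against 16.21% in BAT cells, 15.68% and 6.644% in mouse dendrites and somas and 8.585% and 4.911% in rat dendrites and somas. Most of the cardiomyocyte share was Tbc1d4, or AS160, the insulin-regulated brake on Glut4 vesicles. It had 46127 reads there, 1072 in mouse dendrites, 321 in mouse somas and 7241 in BAT cells, and was in neither rat list. Without it the cardiomyocyte share was 8.65% and the BAT share 13.9%. Intron 1 of Tbc1d4, 100272 nt long, had 30517 reads in 8 contigs in cardiomyocytes and 6319 reads in 12 contigs in BAT cells. Intron 3 had 9792 reads in 1 contig in cardiomyocytes, 115 in BAT cells and 899 in mouse dendrites, and intron 7 had 3445 in cardiomyocytes and 2 in BAT cells. Tbc1d1, its relative in muscle, had 48 reads in mouse dendrites, 117 in mouse somas, 46 in BAT cells and 90 in cardiomyocytes.

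Other Tbc1d genes led in other lists. Tbc1d8 had 17533 reads in BAT cells, all in 1 contig of intron 17, against 425 in mouse dendrites, 28 in rat dendrites, 2 in rat somas and 1379 in cardiomyocytes. Tbc1d12 had 2276 reads in mouse dendrites, 596 in mouse somas, 1328 in BAT cells and 3378 in cardiomyocytes. Tbc1d19 was the member of this family found in all 6 lists, with 89, 122, 344, 288, 380 and 9 reads in mouse dendrites, mouse somas, rat dendrites, rat somas, BAT cells and cardiomyocytes.

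The Vps genes held 40.83% of the member reads in BAT cells, with 27 of the family's 29 genes listed. Of the retromer, Vps35 had 328 reads in mouse dendrites, 33 in mouse somas, 32 in rat dendrites, 1423 in BAT cells and 1301 in cardiomyocytes. Vps26a had 427 in mouse dendrites and 3954 in BAT cells, and Vps26b had 56 in mouse dendrites, 6 in rat dendrites and 23776 in BAT cells. The BAT reads of Vps26b lay in 1 contig of 858 nt in intron 2, at 2771.1 reads per 100 covered nt, and 13.87% of its bases matched the Mfsd4 transcript on the opposite strand. Neither Vps26 gene was listed in a soma list or in cardiomyocytes.

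Of the ESCRT genes, which form vesicles inside endosomes, Vps4b, the ATPase that takes the complex apart, had 25424 reads in BAT cells, 25404 of them in intron 9, and 12, 4 and 68 in mouse dendrites, rat dendrites and cardiomyocytes. Vps24, an ESCRT-III subunit, was in all 6 lists and lower in both dendrites. It had 6 reads in mouse dendrites and 195 in mouse somas (log2 ratio of RPM -5.76, interval -7.22 to -4.61), and 2 in rat dendrites and 523 in rat somas (log2 ratio -6.97, interval -10.02 to -5.11). The rat reads lay in different introns, intron 2 in dendrites and intron 3 in somas. BAT cells had 1602 reads and cardiomyocytes 5174.

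Of the tethers of endosomes and lysosomes, Vps41 of the HOPS complex had 38 reads in mouse dendrites and 303 in mouse somas (log2 ratio -3.73, interval -4.26 to -3.24), and 997 in rat dendrites and 99 in rat somas (log2 ratio 4.39, interval 4.09 to 4.70). The species thus differed in sign. Vps41 had 1847 reads in BAT cells and was not listed in cardiomyocytes. Vps8 of the CORVET complex had 1912 reads in mouse dendrites, of which 1544 lay in intron 45, 502 in mouse somas, 4592 in BAT cells and 1408 in cardiomyocytes. Vps53 of the GARP complex, which tethers endosome vesicles at the Golgi, had 326, 229, 10, 406, 18046 and 337 reads in mouse dendrites, mouse somas, rat dendrites, rat somas, BAT cells and cardiomyocytes.

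The Vps13 proteins, which carry lipids between membranes, have many introns. Vps13a had 152 reads in mouse dendrites and 889 in mouse somas (log2 ratio -3.28, interval -3.54 to -3.03), 171 in rat dendrites and 2007 in rat somas (log2 ratio -2.50, interval -2.73 to -2.27), 2167 in BAT cells and 17628 in cardiomyocytes. Both dendrite lists were thus lower than the somas in these sums. Intron 53, which alone was in both rat lists, had 137 reads in dendrites and 52 in somas. Vps13b had 2821, 905, 257 and 749 reads in mouse dendrites, mouse somas, rat dendrites and rat somas, and 6077 in BAT cells and 3329 in cardiomyocytes. Vps13d had 1526, 1810, 6 and 194 in the neuronal lists, 1583 in BAT cells and 3428 in cardiomyocytes.

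Intron 3 of Vps72, which encodes a subunit of chromatin remodelling complexes, had 985 reads in mouse somas and 1484 in rat somas, and Vps72 was in neither dendrite list. The mouse contig covered 264 nt of an intron of 367 nt. BAT cells and cardiomyocytes had 186 and 19 reads of this gene, in other introns.

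Sorting nexins held 22.73% of the member reads in mouse dendrites and 0.868% in mouse somas, but 13.33% in rat dendrites and 15.73% in rat somas. They held 10.42% in BAT cells and 7.95% in cardiomyocytes. Snx31 alone had 5301 of the dendrite reads, against 43 in mouse somas, 4 in BAT cells and 2 in cardiomyocytes, and it was in neither rat list. Its intron 11 had 5217 reads in 1 contig of 1281 nt, at 407.3 reads per 100 covered nt. Snx7, in all 6 lists, had 2789 reads in mouse dendrites and 24 in mouse somas (log2 ratio 6.13, interval 5.55 to 6.77), but 35 in rat dendrites and 131 in rat somas (log2 ratio -0.85, interval -1.43 to -0.30). It had 2446 reads in BAT cells, where a contig of intron 1 touches an annotated miRNA, and 2812 in cardiomyocytes.

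Snx27, which with the retromer returns receptors to the surface, had 118 reads in mouse dendrites, 3 in mouse somas, 430 in rat dendrites, 1996 in rat somas, 680 in BAT cells and 7 in cardiomyocytes. Snx1, another retromer partner, had 831 reads in mouse dendrites, 60 in rat dendrites and 401 in BAT cells and was in no soma list. Snx9 of clathrin-coated pits had 31 reads in mouse dendrites and 2 in cardiomyocytes. Snx14 was in all 6 lists, with 12 reads in mouse dendrites, 12 in mouse somas, 231 in rat dendrites, 5 in rat somas, 351 in BAT cells and 128 in cardiomyocytes. Snx6 had 11862 reads in BAT cells and 1597 in cardiomyocytes, 311 in rat somas, 10 in mouse somas and 2 in rat dendrites.

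The exocyst tethers secretory vesicles at the plasma membrane. Exoc2 had 314 reads in mouse dendrites, 469 in mouse somas, 279 in rat dendrites, 10 in rat somas, 2806 in BAT cells and 9424 in cardiomyocytes. It was lower in mouse dendrites than somas (log2 ratio -1.31, interval -1.52 to -1.10) and higher in rat dendrites (5.86, interval 4.96 to 6.93). Exoc6b had 578, 1253, 50 and 18 reads in the mouse dendrite, mouse soma, rat dendrite and rat soma lists, 6514 in BAT cells and 965 in cardiomyocytes, and Exoc4 had 807 in mouse dendrites, 2 and 14 in rat dendrites and somas, 274 in BAT cells and 47 in cardiomyocytes. Exoc4 was not listed in mouse somas. The cardiomyocyte reads of Exoc2 lay mostly in intron 11 (7273 reads), which had 25 in BAT cells, while intron 6 had 1516 in BAT cells and 1 in cardiomyocytes.

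The subunits Exoc1, Exoc5, Exoc6 and Exoc7 had at most 674 reads in a list, that of Exoc5 in mouse dendrites. Exoc3 was in all 6 lists, with 100, 208, 10, 29, 760 and 8 reads in mouse dendrites, mouse somas, rat dendrites, rat somas, BAT cells and cardiomyocytes. Exoc3l, a relative of Exoc3, was in the soma lists alone, with 336 reads in mouse and 393 in rat.

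Several other members, chosen here after their values were seen, had many reads in 1 or 2 lists. Rab18, a GTPase of lipid droplets and the endoplasmic reticulum, had 3821 reads in cardiomyocytes, 192 in BAT cells and 16 in mouse dendrites. Rab2a, which acts between the endoplasmic reticulum and the Golgi, had 3954 in cardiomyocytes, 551 in BAT cells, 127 in mouse dendrites, 16 in mouse somas and 576 in rat dendrites. Rab38, a GTPase of melanosomes and related organelles, had 1068 in cardiomyocytes, 74 in BAT cells and 124 in mouse dendrites. As RPM, Rab18 and Rab38 were highest in cardiomyocytes, with 313.2 and 87.53, while Rab2a was higher in rat dendrites (571.7) than in cardiomyocytes (324.1).

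In BAT cells, Snx2, a retromer partner, had 8556 reads, against 126 in cardiomyocytes, 17 in mouse dendrites, 26 in rat dendrites and 3 in rat somas. Vps54, another GARP subunit, had 9649 in BAT cells, 1939 in cardiomyocytes, 1137 in mouse somas and 409 in mouse dendrites. As RPM, Vps54 was higher in mouse somas (612.8) than in BAT cells (540.3). Tbc1d5, which acts on Rab7 at the retromer, had 7632 reads in BAT cells, 1681 in cardiomyocytes, 1035 in mouse dendrites, 2 in mouse somas and 27 in rat dendrites. In rat somas, Snx13 had 1347 reads, against 149 in rat dendrites, 44 in mouse dendrites, 101 in BAT cells and 16 in cardiomyocytes, and Rab39 had 819 reads in rat somas and was in no other list.

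**Figure D3:**
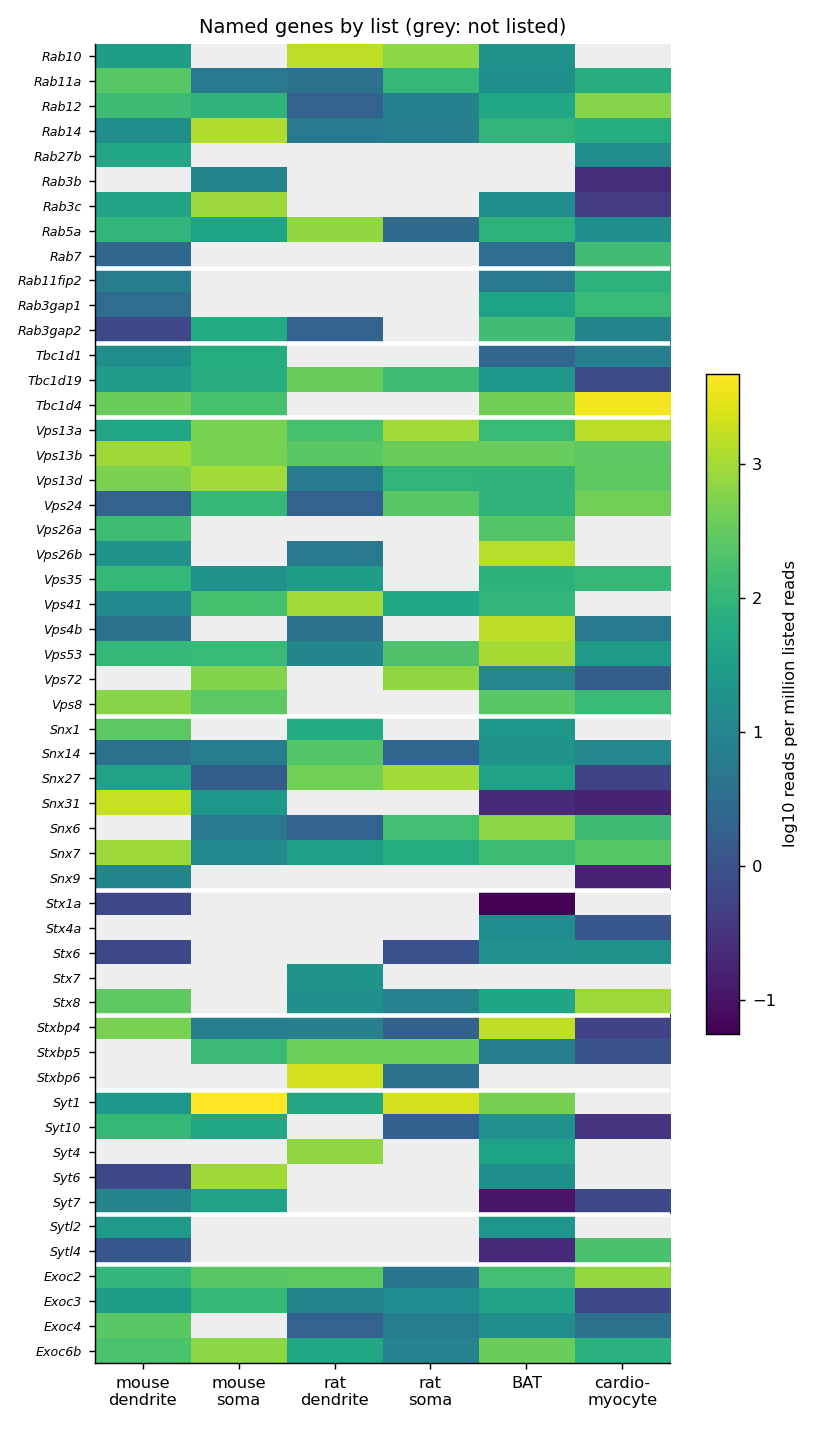
Summed intronic reads of the named genes in each list, as log10 of RPM (colour), with rows grouped by family and grey where a gene was not listed. Syt1 is bright in both soma lists, Tbc1d4 in cardiomyocytes, and Vps26b, Vps4b and Stxbp4 in BAT cells.

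Listing was broad rather than restricted to 1 kind of sample. Counted by symbol, 17 of the 182 were in all 6 lists (9.341%, against 6.236% of all symbols) and 21 were in 1 list (11.54%, against 25.02%). The 17 were Exoc2, Exoc3, Exoc6b, Rab5a, Rab11a, Rab12, Rab14, Snx7, Snx14, Snx27, Stxbp4, Tbc1d19, Vps13a, Vps13b, Vps13d, Vps24 and Vps53. Rab6 of mouse with Rab6a of rat, and Stx5a with Stx5, also cover all 6 lists under 2 symbols. Between species, 76 symbols were in a mouse and a rat list, of 165 in any mouse list (46.06%, against 35.97% of all genes) and 93 in any rat list (81.72%, against 78.5%). BAT cells and cardiomyocytes shared 91 genes, which were 61.49% of the BAT members and 94.79% of the cardiomyocyte members, against 53.25% and 87.7% over all genes. Mouse dendrites and somas shared 72 (57.6% and 74.23%, against 55.06% and 80.39%) and rat dendrites and somas shared 48 (62.34% and 75%, against 48.29% and 63.84%).

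Introns were shared less than genes, among members as in the whole lists. Mouse dendrites and somas had 93 member introns in common (29.62% and 46.73% of the lists, against 25.92% and 47.78% of all introns). Rat dendrites and somas had 42 (30.43% and 37.17%, against 24.91% and 34.81%), and BAT cells and cardiomyocytes 142 (29.22% and 69.95%, against 26.1% and 60.01%). Within a shared intron, contigs of the lists overlapped at 48 of 93 introns in mouse neurons (51.61%, interval 41.6 to 61.5, against 57.99% of all introns), 21 of 42 in rat neurons (50%, against 66.49%) and 78 of 142 between BAT cells and cardiomyocytes (54.93%, against 65.32%). In the rat neurons and between BAT cells and cardiomyocytes, the share of all introns lay above the interval of the members (35.53 to 64.47 and 46.72 to 62.88). It lay inside the interval for mouse somas and BAT cells (members 55.17%, interval 46.1 to 63.91, all 52.44%) and for mouse somas and cardiomyocytes (members 54.41%, interval 42.66 to 65.7, all 59.79%). Of the 719 mouse member introns, 396 were in 1 mouse list (55.08%, against 60.54% of all introns) and 35 in all 4 (4.868%, against 3.698%).

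Read counts of the same intron differed widely between the lists, in either direction. Of the 93 member introns in both mouse neuron lists, 31 (33.33%) were past 4-fold higher as RPM in dendrites, against 32.4% of all introns, and 34 (36.56%) past 4-fold lower, against 30.3%. Intron 1 of Snx7 had 2787 reads in dendrites and 6 in somas, and intron 1 of Rab32, a GTPase of lysosome-related organelles, had 1075 and 4. On the other side, intron 8 of Syt1 had 12 and 7666, and intron 6 of Vps54 had 20 and 1137. The member shares were close to those of all introns in both directions.

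Of the 42 member introns in both rat neuron lists, 13 (30.95%) were past 4-fold higher in dendrites, against 33.6% of all introns, and 12 (28.57%) past 4-fold lower, against 22.6%. The median log2 ratio of all shared rat introns was 0.88 toward dendrites, and scaled to that median 10 member introns were higher (23.81%, against 23.1% of all introns) and 17 lower (40.48%, against 29.2%). Intron 1 of Rab5a had 702 reads in dendrites and 6 in somas, intron 4 of Vps41 had 994 and 5, and intron 8 of Snx27 had 18 and 1247.

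Of the 142 member introns in both BAT cells and cardiomyocytes, 36 (25.35%) were past 4-fold higher in BAT cells, against 26.8% of all introns, and 49 (34.51%) past 4-fold lower, against 32.7%. Intron 1 of Rab4a, a GTPase of rapid recycling, had 3404 reads in BAT cells and 23 in cardiomyocytes, and 1 of its contigs matched another transcript in each list (Pbld1 over 76.87% of 147 nt in BAT cells, Tapbpl over 46.91% of 243 nt in cardiomyocytes). Intron 4 of Snx25 had 22 and 3329, in that order.

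Mouse somas were also set beside both whole cell lists. Of 116 member introns in somas and BAT cells, 54 (46.55%) were past 4-fold higher in somas, against 46.7% of all introns, and 20 (17.24%) past 4-fold lower, against 19.1%. The median of all shared introns was 1.68 on the log2 scale toward somas, and scaled to it 40 were higher (34.48%, against 30.9% of all introns) and 33 lower (28.45%, against 31.7%). With at least 30 reads in 1 list, 34 were higher (39.53%, against 41.5%) and 20 lower (23.26%, against 23.9%). Of 68 in somas and cardiomyocytes, 27 (39.71%) were higher, against 36.9%, and 13 (19.12%) lower, against 25.9%. With the same minimum of reads, 15 were higher (29.41%, against 31.3%) and 13 lower (25.49%, against 31.9%). These comparisons share the soma list. Intron 9 of Vps37a had 1042 reads in somas and 10 in BAT cells, in contigs that touch an exon of the same gene in both lists, and intron 4 of Rab5b, a GTPase of early endosomes, had 414 in somas and 2 in cardiomyocytes.

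The dendrite and soma comparison of genes could be made in both species for the 21 members that all 4 neuronal lists hold under 1 symbol. Of these, 2 were higher in dendrites in both species (Rab5a and Stxbp4), 8 were lower in both (among them Exoc3, Rab14, Syt1, Vps13a, Vps13d, Vps24 and Vps53) and 11 had opposite signs. Over all 1090 genes in the 4 lists these shares were 27.2%, 23.8% and 49%, against 9.524%, 38.1% and 52.38% of the members. Past 4-fold in both species, Syt1, Vps13a and Vps24 were lower (14.29% of the 21, against 7.89% of all genes), and Rab11a and Vps41 went opposite ways (9.524%, against 15.3%). The ratios sum the introns of a gene, and these introns can differ between lists. In rat, dendrites and somas shared no intron of Rab11a, Rab14, Stxbp4, Vps13d, Vps24 or Vps53. A shared intron could also go against the gene ratio, as for Exoc2, Exoc6b and Vps13a in rat and Rab5a in mouse. The counting interval held 0 for Exoc3, Rab12 and Rab14 in rat and for Snx14 and Vps53 in mouse, so the sign of these is not settled by the reads. Stxbp4 was past 4-fold higher in mouse, while its 8 and 4 reads in rat do not settle the size or, once the median of all shared rat introns (0.88 on the log2 scale toward dendrites) is taken off, the sign. Beyond these 21, 3 genes that carry other names in rat also stood in all 4 lists, each with opposite signs. Rab6 had 346 reads in mouse dendrites and 23 in mouse somas, and Rab6a 495 and 2388 in rat (112.1 and 12.4 RPM, then 491.3 and 1140.1). Stx5a had 173 and 52 reads in mouse, and Stx5 147 and 1166 in rat. Stxbp3a had 12 and 472 in mouse, and Stxbp3 31 and 16 in rat.

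**Figure D4:**
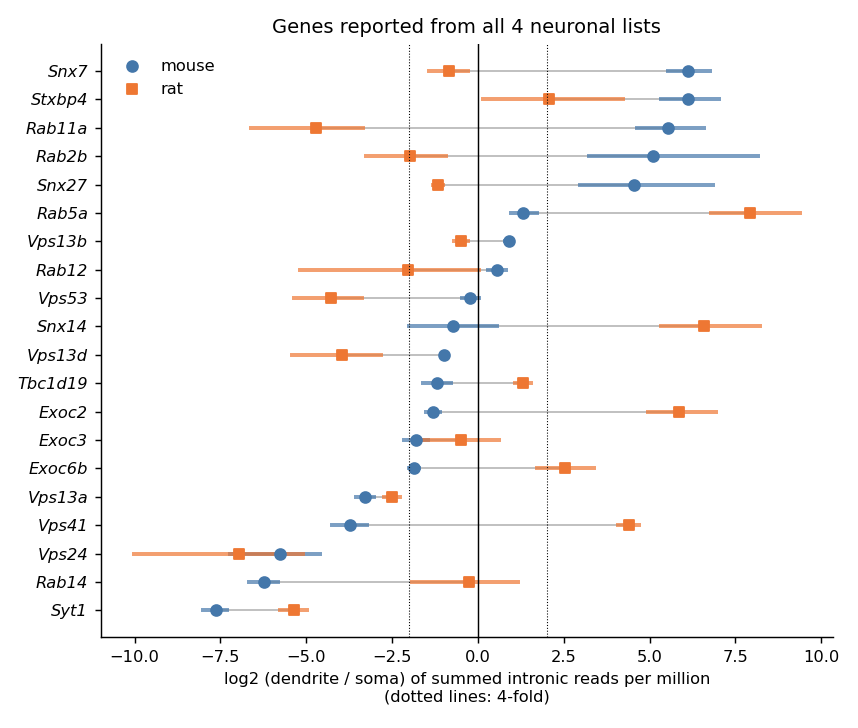
Log2 ratio of summed intronic RPM, dendrite over soma, for 20 of the 21 genes in all 4 neuronal lists, in mouse (circles) and rat (squares), with exact counting intervals as bars and dotted lines at 4-fold. Syt1 sits at -7.64 in mouse and -5.36 in rat, while Rab11a and Vps41 lie on opposite sides in the species.

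The mean length of member contigs was between 358.5 nt in mouse dendrites (SD 255.8 over 436 contigs) and 402.1 nt in mouse somas (SD 320 over 251 contigs) and in rat somas (SD 272.4 over 129 contigs), while that of all contigs was between 353.4 nt in mouse dendrites and 416.8 nt in rat somas. A single contig was found in 73.89% of member introns in mouse dendrites (interval 68.76 to 78.43), against 79.96% of all introns there. In BAT cells it was 74.07%, against 77.76%. It was 85.93% in mouse somas (against 85.87%), 86.23% in rat dendrites (against 89.67%), 89.38% in rat somas (against 90.2%) and 85.71% in cardiomyocytes (against 85.29%). The introns themselves were long: the median mouse member intron was 5111 nt in dendrites, 4220 nt in somas, 3350 nt in BAT cells and 3991 nt in cardiomyocytes, beside 3933, 3839, 2747 and 2768 nt for all listed introns.

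Most mouse member contigs lay inside their intron and reached neither end. These were 91.01% in dendrites, 84.62% in somas, 74.36% in BAT cells and 74.21% in cardiomyocytes, against 91.86%, 86.98%, 72.27% and 68.29% of all contigs. Whole introns, like those of Tbc1d23, Vps37a and Vps36 printed above, made up 0.6912%, 2.024%, 6.838% and 6.746% of the contigs, against 0.5867%, 1.733%, 7.797% and 8.156% of all. Over the 4 lists there were 73 such contigs, with a median length of 277 nt.

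**Figure D5:**
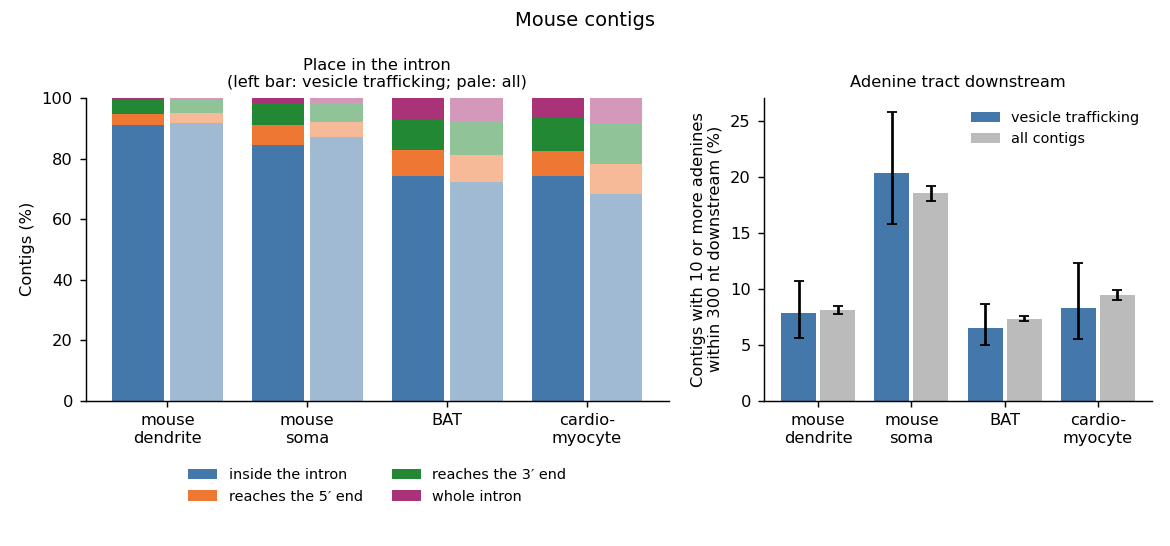
Left, place of mouse contigs in their intron (% of contigs; left bar of each pair vesicle trafficking genes, pale bar all contigs). Right, contigs (%) with at least 10 adenines within 300 nt downstream, with 95% Wilson intervals as error bars; somas stand at 20.32%, the other lists between 6.534% and 8.268%.

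A run of at least 10 adenines within 300 nt downstream, as shown for Stxbp4, Vps37d, Snx6 and Tbc1d23, was found at 34 of 436 member contigs in dendrites (7.798%), 51 of 251 in somas (20.32%, interval 15.81 to 25.73), 46 of 704 in BAT cells (6.534%) and 21 of 254 in cardiomyocytes (8.268%). Among all contigs the shares were 8.079%, 18.5%, 7.336% and 9.422%. Members thus followed the whole lists, in which somas also stood apart. With runs of at least 8 adenines the member shares were 11.24%, 28.29%, 10.51% and 15.35%. A run of thymines of the same length upstream, which on the opposite strand would be a run of adenines downstream, was found at 13.53%, 10.76%, 10.23% and 9.055% of member contigs, against 12.52%, 11.4%, 8.922% and 7.609% of all.

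Trafficking genes outside the naming rule were counted from a fixed list. Of 122 such genes, 105 were in at least 1 list: 79 in mouse dendrites, 70 in mouse somas, 53 in rat dendrites, 39 in rat somas, 96 in BAT cells and 71 in cardiomyocytes. By role, SNAREs and fusion factors were listed for 19 of 27 genes in BAT cells and 6 of 27 in rat somas, Rab regulators for 23 and 9 of 28, tethers for 21 and 8 of 26, coat proteins for 26 and 14 of 30 and Rab effectors for 7 and 2 of 11. The lists differ in size, with 10220 genes of any kind in BAT cells and 3393 in rat somas. These counts are not corrected for that, so they do not set the trafficking genes apart. Intron 6 of Snap25, a SNARE of the presynaptic membrane, had the most reads of the SNARE and fusion group in both soma lists, with 1295 reads in mouse and 932 in rat.

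Host genes of introns were checked against cell type markers. An intronic contig in a gene is not a measure of its mRNA. Of 10 neuronal markers, 7 were listed in mouse dendrites, 8 in mouse somas, 3 in rat dendrites and 5 in rat somas, but also 7 in BAT cells and 3 in cardiomyocytes, and Map2 and Syn1 were in no list. Summed reads of the neuronal markers were 5262 in mouse dendrites and 19178 in mouse somas, and 4505 in rat dendrites and 26768 in rat somas. They were 10534 in BAT cells and 4589 in cardiomyocytes. Of 6 brown adipocyte markers, 5 were listed in BAT cells (61264 reads; Ppargc1a not listed), but 3 also in cardiomyocytes (3505 reads), 3 in mouse dendrites (361 reads) and 1 in each other list (2 to 95 reads). Of 7 cardiomyocyte markers, 6 were listed in cardiomyocytes (321161 reads; Nkx2-5 not listed), but 5 also in BAT cells (49637 reads) and 5 in mouse dendrites (1601 reads). Of 5 astrocyte markers, between 1 and 3 were listed in the neuronal lists, with 69 to 258 reads in all. Oligodendrocyte lineage markers had 60 to 139 reads there, fibroblast markers 0 to 321 and endothelial markers 6 to 1381, of which 950 lay in intron 10 of Flt1 in mouse dendrites. The microglial markers had 10 reads in mouse dendrites and were in no other list. The part of other cells in the values of the trafficking genes was not tested.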

How the data were processed

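The authors pooled the libraries of a condition, aligned reads to mm9 or rn4 (builds from the submitters' processing notes), kept the intronic reads that mapped uniquely, dropped any intron holding a predicted gene, poly(A) site or structured RNA, and joined neighbouring reads into contigs. The deposited counts are raw reads per intron, repeated on each contig, and were taken once. The description of each library names the list of its group. The labels name more libraries of BAT cells and cardiomyocytes than the study's text counts cells, and this difference is not explained in the sources used here. The deposited stop position proved inclusive with starts from 0, so 1 was added to both. No column of per-sample values was left unused, since the lists are pooled.

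Members were genes by symbol. Mouse introns and exons were taken from GENCODE vM1 on NCBIM37, and rat introns' lengths and sequence were not analysed here. RPM are reads scaled to the listed reads of a list. Shares have 95% Wilson intervals and ratios exact conditional intervals. Stretches shared with other genes were found as exact words of 31 bases from 55443 coding transcripts. The counting steps were tested on simulated data. Python 3.11.15, pandas 2.3.3, numpy 2.4.6, scipy 1.17.1, pysam 0.24.0 and matplotlib 3.10.9 were used.

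Named genes were the 3 introns with the most reads per list, the leading genes of each family, members in all 6 lists and 32 textbook members, 55 genes in all. Values of some single members are not reported here, and these members were left out of the figures that name genes. Other genes named in the text were chosen after their values were seen. The members and all gene and marker lists were chosen with earlier results of these data known. Alternatives were contigs of at most 400 nt (the limit the authors used for whole cells), a minimum of 30 reads, other thresholds and scalings, and shares without Syt1 or Tbc1d4, of which the last, and the scaled Syt1 ratio, were added after seeing the data.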

Additional observations from a re-analysis of the deposited data

How the results depend on the processing

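No paired analysis was possible because each list pools its libraries and holds no value per library, and leaving out a library was not possible either. Of the alternatives to the counts of member and shared genes, the median reads, the shares with an intron of at least 100 reads and the fold counts of dendrites against somas and of BAT cells against cardiomyocytes, 80 stayed near the value as reported and 48 moved, all under a read minimum, a limit on contig length or another threshold. Of those to the other values (contig length, introns with 1 contig, runs of adenines, somas against whole cells, family shares and single genes), 32 stayed near and 34 moved, some of them under scaling, joining of contigs, shorter runs of adenines or without Syt1 or Tbc1d4. A count was called near when it changed by no more than a set ratio, and most other values when they lay inside the interval of the value as reported. Near values can thus differ by more than some that moved. With introns of at least 30 reads, the member genes were 82 in mouse dendrites, 55 in mouse somas, 38 in rat dendrites and 34 in rat somas. The median reads per intron were then 106, 135, 132, 207, 179 and 383 (mouse dendrites, mouse somas, rat dendrites, rat somas, BAT cells and cardiomyocytes, the order kept below), and the genes with an intron of at least 100 reads 67.07%, 74.55%, 73.68%, 76.47%, 78.5% and 79.1%. Shared genes were 33 for mouse dendrites and somas, 16 for rat and 54 for BAT cells and cardiomyocytes. With contigs of at most 400 nt, the medians were 17.5 in mouse dendrites, 6 in rat dendrites, 10 in rat somas, 19 in BAT cells and 19.5 in cardiomyocytes, and the share of genes with an intron of at least 100 reads was 32.73%, 24.1%, 18.03%, 22.92%, 44.36% and 40.26%. With a threshold of 20 reads that share was 70.4%, 62.89%, 61.04%, 56.25%, 76.35% and 72.92%, and with 1000 reads 7.2%, 5.155%, 2.597%, 12.5%, 23.65% and 29.17%. The share over all genes was not taken at any of these settings, so these values do not set members apart from the whole lists. Past 16-fold, 18 member introns were higher (19.35%, against 21.4% of all introns) and 17 lower (18.28%, against 15.7%) in mouse dendrites than somas, 5 higher (11.9%, against 14.2%) and 6 lower (14.29%, against 12.2%) in rat dendrites than somas, and 18 higher (12.68%, against 13.3%) and 33 lower (23.24%, against 19.1%) in BAT cells than cardiomyocytes. With at least 30 reads in 1 list, 6 were higher (21.43%, against 33.9% of all introns) and 10 lower (35.71%, against 32.6%) in rat dendrites than somas, where 13 and 12 were reported. Scaled to the median of all shared introns, the log2 ratio of Syt1, dendrite over soma, was -7.59 in mouse and -6.24 in rat. Rat dendrites have the fewest listed reads, 1007530, and counts of 2 reads there carry ratio intervals of several log2 units.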
